A study of Homo sapiens with 12 samples.

Results

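The genes described here were 10 markers of the basal and squamous state of stratified epithelium, taken by gene name from an RNA-seq count table of 60666 genes. They were TP63, DSG3, DSC3, IVL, SPRR1B, SPRR3, S100A7, S100A8, S100A9 and PI3, and each name matched 1 gene. The study asked how FOXP3 and interferon γ (IFNγ) act on gene expression in HT1376, a cell line from a human bladder carcinoma. HT1376 CT, labelled WT, carried Cas9 with a guide against luciferase, and HT1376 FOXP3 KO carried guides against exon 2 of FOXP3. Both were grown from a single cell, so each line is 1 clone, and an effect of the knockout cannot be told apart from a difference between the clones. Each line was left untreated (labelled UTR) or given IFNγ at 100 ng/mL over 48 hours, and each of the 4 groups held 3 libraries, numbered 11, 12 and 13. Nothing in the labels says that the 3 came from separate cultures, so p-values measure the spread between these libraries, which may be technical.

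Stratified epithelium renews from a basal layer, in which the transcription factor p63, the product of TP63, keeps the squamous lineage. Cells moving upward exchange one set of desmosomal cadherins for another and then build a cornified envelope, in which transglutaminases crosslink involucrin and small proline-rich proteins beneath the membrane. S100 proteins and the elastase inhibitor elafin are made in the same layers under stress or inflammation. In bladder cancer, expression of these genes marks the basal/squamous subtype, as opposed to the luminal one.

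The libraries held 4490684 to 39270042 counts (median 15551201), and the shallowest was the HT1376 CT library 12 with IFNγ. FOXP3 had at most 3 counts in every library, so its level could not check the labels. IRF1 and GBP1, which IFNγ induces, rose in both lines: by 3.83 and 7.12 on the log2 scale in HT1376 CT and by 2.91 and 4.05 in HT1376 FOXP3 KO. Untreated GBP1 was already higher in the knockout, at 39.2 to 51.5 against 4.51 to 7.35 normalised CPM. With IFNγ GBP1 overlapped between the lines (704 to 786 in the knockout, 747 to 876 in the control), and IRF1 was lower in the knockout (370.5 to 389.4 against 855 to 909). Epithelial markers (EPCAM, CDH1, KRT8, KRT18 and KRT19) summed to between 3024 and 3845 normalised CPM in every library. Within this sum KRT8 and KRT19 overlapped between the lines, whereas EPCAM and CDH1 were lower in the knockout under both conditions. CDH1 was at 208 to 265 against 354 to 399 normalised CPM untreated, and at 229 to 284 against 386.5 to 396.8 with IFNγ. KRT18 was lower in the untreated knockout and overlapped with IFNγ. Normalised CPM are counts scaled to the size of each library with TMM factors (CPM).

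Which of the 10 genes was most abundant differed between the lines. Per kilobase of exon, untreated HT1376 CT held SPRR1B at 467 CPM and SPRR3 at 431 CPM, whose ranges overlapped, followed by DSC3 at 58.2, S100A9 at 33.6 and TP63 at 11.1. S100A7 (9.26 CPM per kilobase) overlapped with both TP63 and IVL (7.24), and DSG3 (2.87) overlapped with S100A8 (2.31), while PI3 stood last at 0.154. In untreated HT1376 FOXP3 KO, DSC3 led with 127 CPM per kilobase, ahead of S100A9 at 67.6 and S100A7 at 58.8, which overlapped. TP63 (16.5), S100A8 (13.2), SPRR3 (11.0) and SPRR1B (8.14) came next, each overlapping with its neighbour, and SPRR1B overlapped with IVL (4.99). PI3 at 0.805 and DSG3 at 0.448 CPM per kilobase were last and overlapped. With IFNγ the 3 leading genes of each line kept their places by mean: SPRR1B (296), SPRR3 (226) and DSC3 (43.7) in HT1376 CT, and DSC3 (111), S100A9 (44.4) and S100A7 (33.7) in HT1376 FOXP3 KO. In the treated knockout S100A7 overlapped with both S100A9 and TP63 (16.1).

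**Figure D1:**
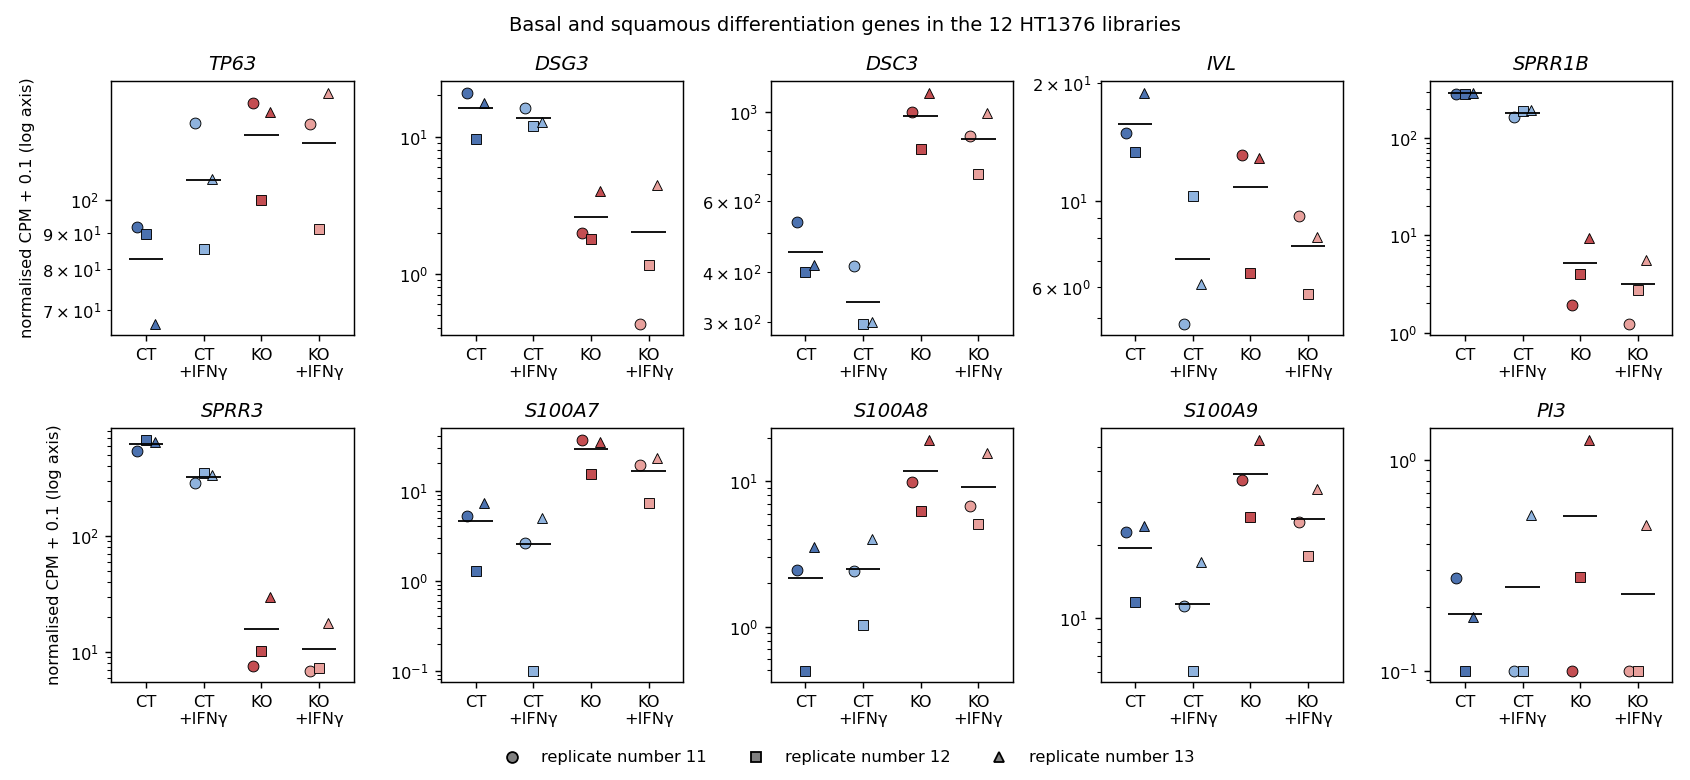
Normalised CPM plus 0.1 on a log axis for each of the 10 genes in the 2 lines, HT1376 CT and HT1376 FOXP3 KO, without and with IFNγ. Each symbol is 1 library, its shape gives the replicate number and the line is the mean of 3. SPRR1B and SPRR3 lie at 287 to 678 CPM in the untreated control and at 1.80 to 29.8 CPM in the untreated knockout, while DSC3 and the 3 S100 genes lie higher in the knockout.

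Without IFNγ, 5 of the 10 genes were higher in HT1376 FOXP3 KO (TP63, DSC3, S100A7, S100A8 and S100A9) and 3 were lower (DSG3, SPRR1B and SPRR3), by edgeR's quasi-likelihood test at an adjusted p under 0.05. Of all 25320 genes tested, 14% were called higher and 18.2% lower, so calls were common in this comparison. These shares include many genes with few counts. Among the 17629 genes kept by filterByExpr, edgeR's filter against low counts, 3631 were called higher and 3982 lower, which are larger shares. IVL and PI3 were not called. The 2 cadherins went opposite ways, and so did SPRR1B and SPRR3 against the 3 S100 genes, which lie in the same gene complex on chromosome 1.

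TP63 (chr3:189631389-189897276, + strand, GRCh38) encodes p63, the regulator of the basal layer. It was at 91.5, 89.4 and 67.0 CPM in HT1376 CT libraries 11, 12 and 13, and at 137, 99.98 and 133 CPM in HT1376 FOXP3 KO. The groups did not overlap, although library 12 of the knockout was only 1.12 times its control. TP63 was 1.49-fold higher on means (log2 fold change 0.60 ± 0.157 SE, adjusted p = 0.0142). Without the HT1376 CT library 13, the lowest of the 6, the log2 fold change was 0.49 and the adjusted p 0.0514. The adjusted p was 0.0645 without both libraries numbered 11 and 0.101 without both numbered 13. Gene counts do not separate the long and the ΔN forms of p63. TP73, the closest relative of TP63, was not called, at 16.8 to 24.2 CPM in the control and 20.3 to 22.1 CPM in the knockout.

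The desmosomal cadherins join cells to each other from within desmosomes, and DSG3 and DSC3 are the desmoglein and the desmocollin of the lower layers. DSG3 (chr18:31447741-31478702, + strand) was at 20.8, 9.53 and 17.6 CPM in HT1376 CT and at 1.88, 1.69 and 3.92 CPM in HT1376 FOXP3 KO. All 3 knockout libraries were below all 3 controls, and the mean was 6.40-fold lower (log2 fold change -2.65 ± 0.365 SE, adjusted p = 0.000247). DSC3 (chr18:30989365-31042815, - strand), in the same cadherin cluster, was at 531, 399 and 415 CPM in the control and at 998, 808 and 1117 CPM in the knockout. It was 2.17-fold higher, again without overlap (log2 fold change 1.14 ± 0.145 SE, adjusted p = 0.000147). The desmocollin therefore exceeded the desmoglein in both lines, per kilobase from 58.2 against 2.87 CPM in the control to 127 against 0.448 CPM in the knockout.

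Of 11 desmosome partners listed, 3 (27.3%) were higher and 5 (45.5%) lower, beside 14% and 18.2% of all genes, with a median log2 fold change of -0.34 beside -0.02 over all genes tested. DSC1, a desmocollin of the upper layers, rose from a mean of 2.22 to 16.3 CPM (log2 fold change 2.95, adjusted p = 2.53e-05), and plakophilin 2 (PKP2) from 19.5 to 118 CPM (2.61, 1.36e-05). Plakophilin 1 (PKP1), a plaque protein of squamous cells, fell from 54.4 to 13.9 CPM (log2 fold change -1.96, adjusted p = 2.20e-05). DSG1, the desmoglein of the upper layers, fell from 441 to 198 CPM (log2 fold change -1.14, adjusted p = 0.0129).

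The cornified envelope is represented by SPRR1B, SPRR3 and IVL, of which the first 2 held the largest differences among the 10 genes and IVL was not called. SPRR1B (chr1:153031203-153032900, + strand) encodes a small proline-rich protein that is crosslinked into the envelope. It was at 287, 287 and 295 CPM in HT1376 CT and at 1.80, 3.92 and 9.39 CPM in HT1376 FOXP3 KO, from 42, 44 and 163 counts. The control libraries were nearly equal, the knockout libraries were spread with number 13 the highest, and the groups lay far apart. SPRR1B was 57.4-fold lower (log2 fold change -5.84 ± 0.449 SE, adjusted p = 3.67e-06).

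SPRR3 (chr1:153001747-153003856, + strand), a small proline-rich protein best known from the oesophagus and other wet squamous surfaces, was at 540, 678 and 646 CPM in HT1376 CT. The knockout libraries held 7.45, 10.2 and 29.8 CPM, with library 13 the highest as for SPRR1B. It was 39.3-fold lower (log2 fold change -5.28 ± 0.450 SE, adjusted p = 7.65e-06). Without the knockout library 13 the log2 fold change was -6.69 for SPRR1B and -6.09 for SPRR3. SPRR1A, the nearest copy of SPRR1B, which could share reads with it, lay on the same side, at 34.2 to 56.1 CPM in the control and 0.171 to 1.61 CPM in the knockout.

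Involucrin is an early scaffold of the envelope, and its gene IVL (chr1:152908546-152911886, + strand) lies among the SPRR and LCE genes. IVL was at 14.8, 13.2 and 18.8 CPM in HT1376 CT and at 13.0, 6.42 and 12.8 CPM in HT1376 FOXP3 KO. The groups did not overlap, but the nearest libraries, 13.2 and 13.0 CPM, almost met. The log2 fold change was -0.51 ± 0.255 SE (adjusted p = 0.154). With the replicate number as a block it was -0.54 (adjusted p = 0.0206), and with all genes of at least 1 count in the fit the adjusted p was 0.0441. In edgeR the latter fit gave SPRR1B an unadjusted p of 2.02e-256 and the block 1.12e-17, against 6.6e-08 in the main fit. The p-values of both alternatives are therefore not read as the spread between the 3 libraries.

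The promoters of these 3 genes are shown because the genes share a cluster and yet differed between the lines by very unequal amounts. AP-1, a dimer of JUN and FOS proteins that drives genes of the upper layers, binds TGANTCA. This motif, searched on both strands, was added after the values were seen. It occurred in IVL, SPRR3 and SPRR1B and in none of the other 6 genes with an entry, beside 9.37% of 27305 genes. Of 35116 promoters in the RefSeq table (GRCh38.p14, 250 bases before to 50 after the start), 7.71% hold it. PI3 has no entry. Each line gives 30 bases on the + strand, 5′ to 3′, with the motif in capitals, and SPRR1B holds it at 2 places.
IVL, chr1:152908412-152908441: gatgcctgtggTGAGTCAggaaggggttag
SPRR3, chr1:153001568-153001597: agggtggacagTGAGTCAggcccaggtgac
SPRR1B, chr1:153031051-153031080: atcacaaaagtTGAGTCAacaggtgggtga
SPRR1B, chr1:153031081-153031110: gggaagaggggTGAATCAcatctgacaggt

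Forkhead motifs, of the kind FOXP3 binds, were searched in the same windows on both strands. TGTTTAC occurred in SPRR1B alone among the 9 genes, beside 4.19% of all genes and 3.42% of all promoters. The shorter TAAACA occurred in TP63, SPRR1B and S100A9, beside 14.7% of all genes and 12.3% of all promoters. In SPRR1B the shorter motif is contained in the longer one. The interferon γ-activated site, TTCNNNGAA, was found in 0 of the 9, beside 9.38% of all genes and 7.66% of all promoters. These are matches of letters, and binding was not measured here. The lines are on the + strand, with the motif or its reverse complement in capitals.
SPRR1B, chr1:153030954-153030983: ccacccttcctGTAAACActacacctggga
S100A9, chr1:153357622-153357651: agggaaatgaacTAAACAaccagcttcctc
TP63, chr3:189631276-189631305: gtaagaatcgagTGTTTAtgaagttttagt

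S100A7, S100A8 and S100A9 encode small calcium-binding proteins of stressed epithelium: S100A7 is psoriasin, which kills Escherichia coli on skin, and S100A8 and S100A9 pair to form calprotectin, which withholds zinc and manganese from microbes. S100A7 (chr1:153457744-153460651, - strand) was at 5.09, 1.19 and 7.22 CPM in HT1376 CT and at 36.6, 15.1 and 34.1 CPM in HT1376 FOXP3 KO. Every knockout library was above every control, with library 12 the lowest of both groups. S100A7 was 6.35-fold higher (log2 fold change 2.62 ± 0.474 SE, adjusted p = 0.00161). Its copy S100A7A, which could share reads, had at most 16 counts in the control and 22 in the knockout.

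S100A8 (chr1:153390032-153391073, - strand) was at 2.34, 0.397 and 3.44 CPM in the control, from 40, 5 and 130 counts, and at 9.77, 6.15 and 19.2 CPM in the knockout. It was 5.69-fold higher (log2 fold change 2.43 ± 0.551 SE, adjusted p = 0.00626), without overlap, and the log2 fold change was 3.07 without the control library 13. S100A9 (chr1:153357854-153361023, + strand) was at 22.4, 11.6 and 23.7 CPM in the control and at 36.8, 25.9 and 53.6 CPM in the knockout. It was 2.02-fold higher (log2 fold change 1.02 ± 0.286 SE, adjusted p = 0.0193), with the lowest knockout library just above the highest control. Without the HT1376 FOXP3 KO library 13 its log2 fold change was 0.77 and its adjusted p 0.0661, and without both libraries numbered 11 or both numbered 13 the adjusted p was 0.0646 and 0.0753.

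Since S100A8 and S100A9 are abundant in neutrophils and monocytes, markers of those cells were read in the same libraries. The 10 listed markers summed to 2.87 to 5.29 CPM in untreated HT1376 CT and to 106 to 237 CPM in untreated HT1376 FOXP3 KO, and with IFNγ to 3.29 to 6.93 and 82.8 to 184 CPM. CSF1R alone, the receptor of macrophage colony-stimulating factor, made 101 to 232 CPM of the untreated knockout sum, against 1.35 to 2.54 CPM in the control. CSF3R, the receptor of granulocyte colony-stimulating factor, had 0 counts in every control library and was at 0.803 to 7.75 CPM (at most 181 counts) in the untreated knockout. FPR1, a formyl peptide receptor, was at 0 to 0.556 CPM in the untreated control and at 2.13 to 3.39 CPM in the knockout, and CD14 overlapped, at 0.234 to 0.502 and 0.268 to 2.14 CPM. FCGR3A had 0 counts in the control and at most 3 in the untreated knockout (10 with IFNγ), whereas ITGAM was lower in the untreated knockout, at 0.173 to 0.714 against 0.995 to 2.20 CPM. ELANE (0 counts), MPO (at most 1 count), LYZ (at most 2 counts) and S100A12 (at most 4 counts) were at or near 0 in every library. Fibroblast markers also stood higher in the knockout, at 166 to 282 CPM against 29.4 to 35.5 CPM untreated, led by DCN and LUM, whereas COL1A1 was lower (7.31 to 8.52 against 25.9 to 31.8 CPM). T and B cell markers and endothelial markers each summed to at most 2.54 CPM in any library, and EPCAM was at 67.0 to 97.3 CPM in the control and 21.0 to 23.1 CPM in the knockout. The part of these differences in the S100 results was not tested. In bulk RNA, a smaller share of cells with a gene and less of its RNA per cell cannot be told apart.

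PI3 (chr20:45174902-45176544, + strand) encodes elafin, an elastase inhibitor of inflamed squamous epithelium. It had 3, 0 and 3 counts in HT1376 CT, 0, 0 and 8 with IFNγ, 0, 2 and 20 in HT1376 FOXP3 KO, and 0, 0 and 12 with IFNγ. In raw counts library 13 was the highest or tied for the highest in each group. Scaled to depth, library 11 was the highest in untreated HT1376 CT, at 0.176 CPM against 0.0793 CPM in library 13. Most libraries were at or under 3 counts, the limit that a count of 0 allows, so no difference was detectable at this depth and no fold is given.

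**Figure D2:**
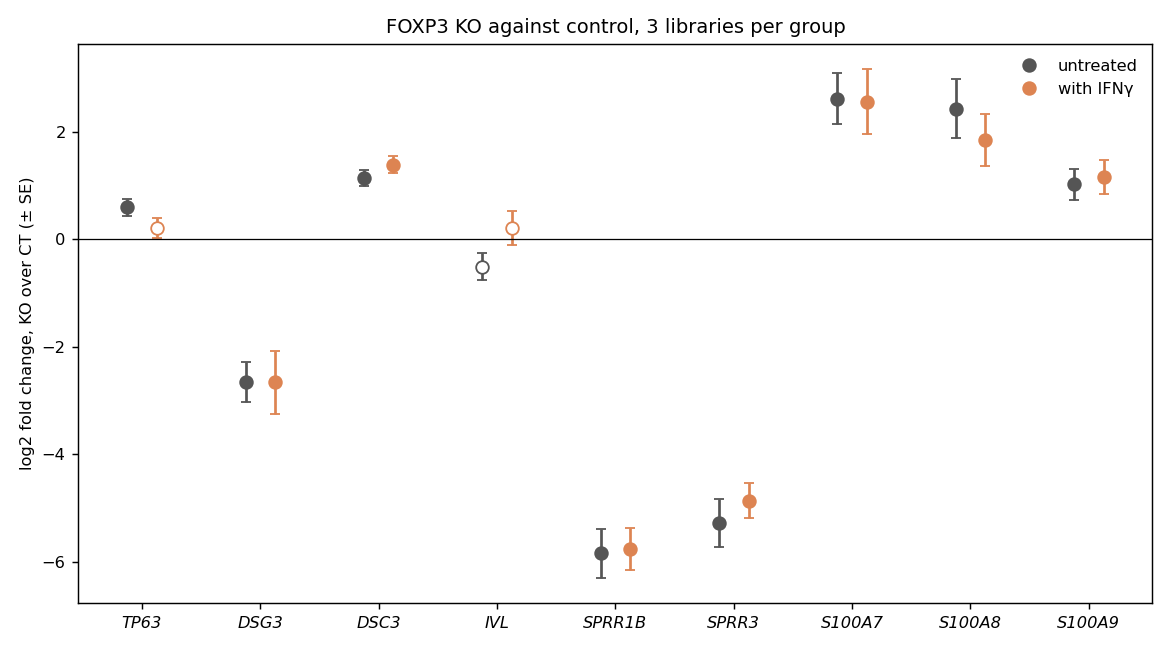
Log2 fold change of HT1376 FOXP3 KO over HT1376 CT, without and with IFNγ, for the 9 genes other than PI3. Points are estimates of edgeR from 3 libraries per group, bars are ± 1 SE, and filled points have an adjusted p under 0.05. SPRR1B lies at -5.84 and -5.75, S100A7 at 2.62 and 2.55, and TP63 and IVL are the genes with an open point.

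With IFNγ in both lines, 4 of the genes were higher in the knockout (DSC3, S100A7, S100A8 and S100A9), beside 13.2% of 24388 genes tested, and the same 3 were lower, beside 15.7%. SPRR1B was at 167, 190 and 193 CPM in HT1376 CT with IFNγ and at 1.14, 2.67 and 5.45 CPM in the knockout (59.4-fold lower, log2 fold change -5.75 ± 0.391 SE, adjusted p = 1.44e-06). SPRR3 was at 289, 350 and 339 CPM against 6.82, 7.26 and 17.8 CPM (30.7-fold lower, log2 fold change -4.86 ± 0.327 SE, adjusted p = 1.36e-06). Neither gene came near an overlap, and without the treated knockout library 13 the log2 fold changes were -6.60 and -5.47.

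DSG3 was at 16.2, 11.8 and 12.7 CPM in the control and at 0.334, 1.07 and 4.30 CPM in the knockout, where library 11 held only 5 counts (log2 fold change -2.66 ± 0.587 SE, adjusted p = 0.00577). Without the knockout library 13 the log2 fold change was -4.31. DSC3 was at 413, 297 and 300 CPM against 872, 699 and 994 CPM (log2 fold change 1.39 ± 0.158 SE, adjusted p = 6.74e-05). The opposite direction of the 2 cadherins was thus measured under both conditions.

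S100A7 was at 2.52, 0 and 4.80 CPM in the control with IFNγ and at 18.9, 7.15 and 23.0 CPM in the knockout (log2 fold change 2.55 ± 0.605 SE, adjusted p = 0.00852). The 0 belongs to the shallowest library, where 3 counts correspond to 0.668 CPM, and DESeq2 gave 2.77 with an adjusted p of 0.0832. Without the control library 13 it was 3.42, and without both libraries numbered 11 the adjusted p was 0.0662. S100A8 was at 2.32, 0.923 and 3.91 CPM against 6.69, 5.02 and 15.5 CPM (1.84 ± 0.483 SE, adjusted p = 0.0148), and S100A9 at 11.1, 6.0 and 16.9 CPM against 24.7, 17.8 and 33.8 CPM (1.16 ± 0.316 SE, adjusted p = 0.0182). None of the 3 overlapped between the lines. The calls of S100A8 and S100A9 were lost without the HT1376 CT library 11 (adjusted p 0.0512 and 0.0582) and without the HT1376 FOXP3 KO library 13 (0.0812 and 0.0729), where the log2 fold change of S100A8 was 1.24. Without both libraries numbered 11 the adjusted p was 0.0526 for S100A8 and 0.0970 for S100A9, and without both numbered 13 it was 0.0540 for S100A8.

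TP63 overlapped between the lines under IFNγ, at 128, 85.2 and 107 CPM in the control and 128, 91.0 and 142 CPM in the knockout (log2 fold change 0.21 ± 0.180 SE, adjusted p = 0.431). IVL overlapped as well, at 4.74, 10.2 and 6.03 CPM against 9.03, 5.66 and 7.96 CPM (0.22 ± 0.319 SE, adjusted p = 0.667).

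The response to IFNγ was read next within each line. In HT1376 CT, 3 of the 10 genes fell (IVL, SPRR1B and SPRR3), beside 1.82% of 24416 genes tested that were called lower, and none was called higher, beside 3.53%. All 3 are precursors of the cornified envelope. SPRR3 fell 1.91-fold, from 540 to 678 CPM untreated to 289 to 350 CPM (log2 fold change -0.91 ± 0.119 SE, adjusted p = 0.000675). SPRR1B fell 1.58-fold, from 287 to 295 CPM to 167 to 193 CPM (-0.63 ± 0.101 SE, adjusted p = 0.00276), and IVL fell 2.23-fold, from 13.2 to 18.8 CPM to 4.74 to 10.2 CPM (-1.21 ± 0.273 SE, adjusted p = 0.0245).

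None of the 3 overlapped between treated and untreated libraries. The IVL call was lost when either untreated library 11 or 13 (adjusted p 0.0633 and 0.134) or either treated library 11 or 13 (0.0765 and 0.136) was left out, or without both libraries numbered 11 (0.148), and all 3 calls were lost without both libraries numbered 13. The calls of SPRR1B and SPRR3 were also lost when all 12 libraries shared 1 estimate of spread (adjusted p 0.449 and 0.244), a fit that also holds the knockout libraries.

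Libraries with the same number deviated together within each line, so ratios were taken within each number and the number was also fitted as a block. In HT1376 CT the ratio with IFNγ to untreated was 0.534, 0.516 and 0.525 for SPRR3 in numbers 11, 12 and 13, and 0.581, 0.663 and 0.656 for SPRR1B. DSC3 was at 0.779, 0.744 and 0.723 and S100A9 at 0.498, 0.518 and 0.711 of the untreated level. These 4 genes were below 1 in every number, although DSC3 and S100A9 overlapped between the groups. With the block, 7 genes were called: 1 higher, TP63 (log2 fold change 0.42, adjusted p = 1.49e-05), and 6 lower. The 6 were the 3 envelope genes, DSC3 (-0.39, 2.58e-08), S100A7 (-0.89, 0.0238) and S100A9 (-0.74, 3.36e-05). Calls were also more common over all 24416 genes, with 2118 higher and 2412 lower, against 862 and 445 without the block. TP63 was above 1 in numbers 11 and 13 (1.40 and 1.60) and at 0.952 in number 12. Without the block its adjusted p was 0.222, and those of DSC3, S100A7 and S100A9 were 0.189, 0.685 and 0.311. DSC3 was also called without the treated library 11 (0.0441) and, like S100A9, with all genes of at least 1 count in the fit (0.0165 and 0.0138). That edgeR fit gave SPRR3 an unadjusted p of 7.97e-15, against 8.46e-06 in the main fit, and has the limit given for IVL above. The fit with the block has the same limit, and it called TP63 although number 12 stood at 0.952. When the deviance was also adjusted for bias at low counts, S100A7 had an adjusted p of 0.0686 and the other 6 remained called.

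In HT1376 FOXP3 KO, 0 of the 10 genes were called after IFNγ, beside 0.978% of 24131 genes called higher and 0.00414% lower. The lowest unadjusted edgeR p among the 10 was 0.0547, for S100A9, so 0 were under 0.05, and DESeq2 also called 0, with S100A7 and S100A9 at unadjusted p of 0.0383 and 0.0330. The ratios within numbers nonetheless lay below 1 for most of them. S100A9 was at 0.672, 0.689 and 0.630 of the untreated level, S100A7 at 0.517, 0.474 and 0.675, and DSC3 at 0.873, 0.865 and 0.890. With the block, 387 of all 24131 genes were called lower and 947 higher. Among the 10 genes, 5 were then called lower: S100A7 (log2 fold change -0.80, adjusted p = 1.16e-09), S100A9 (-0.58, 5.98e-07), DSC3 (-0.17, 0.00614), SPRR3 (-0.49, 0.0196) and IVL (-0.50, 0.0487). IVL was at 0.0554 with the bias adjustment, and the other 4 remained called. The p-values of the fit with the block have the limit given for IVL above.

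SPRR1B in the knockout was at 0.632, 0.680 and 0.580 of its untreated level, from 17, 25 and 167 counts with IFNγ, and was not called with the block (-0.68, adjusted p = 0.0946). SPRR3 was at 0.915, 0.714 and 0.597, IVL at 0.693, 0.881 and 0.622 and S100A8 at 0.685, 0.815 and 0.805. In the control S100A8 had no common direction (0.992, 2.33 and 1.14). DSG3 had none in either line, at 0.776, 1.24 and 0.720 in HT1376 CT and at 0.177, 0.630 and 1.10 in HT1376 FOXP3 KO.

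**Figure D3:**
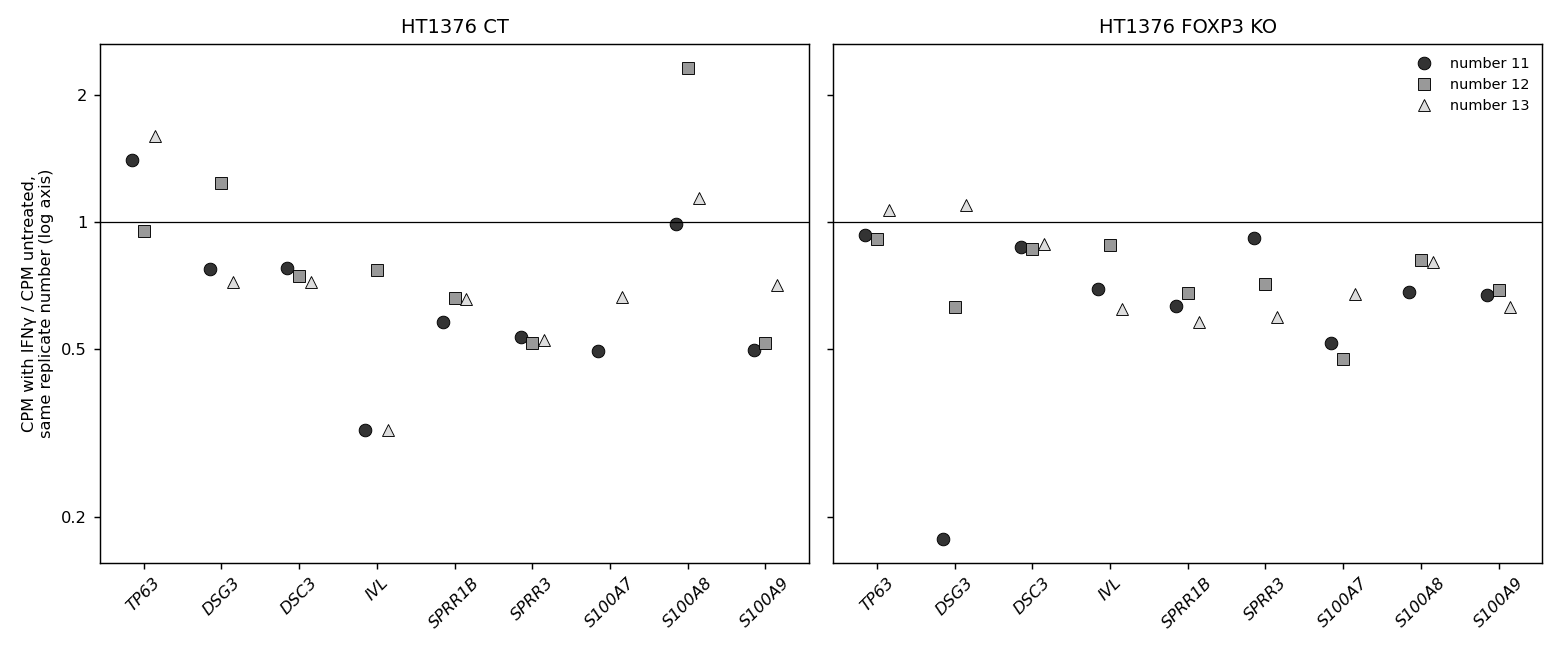
Ratio of normalised CPM with IFNγ to untreated on a log axis, taken between libraries of the same number, in HT1376 CT and HT1376 FOXP3 KO, for 9 genes. Each symbol is 1 ratio, and S100A7 in number 12 of the control is not drawn because its treated library held 0 counts. SPRR1B lies at 0.581 to 0.663 in the control and 0.580 to 0.680 in the knockout.

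An interaction term in a fit of the 12 libraries together asked if the lines responded differently to IFNγ. None of the 10 genes was called, beside 0.111% of 27806 genes. By edgeR 0 of them had an unadjusted p under 0.05, and DESeq2 called 0. The estimate was 0.71 ± 0.425 SE for IVL (adjusted p = 0.892) and -0.42 ± 0.266 SE for TP63 (0.894), the lowest unadjusted p-values of the 10 (0.116 and 0.132). With the block these 2 had unadjusted p of 0.0384 and 0.0340 and adjusted p of 0.478 and 0.454. For SPRR1B the estimate was 0.06 ± 0.624 SE, an error as large as its fall in the control.

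The genes around the members were read from lists of stratified epithelium. Of 30 other genes of the cornified envelope, 25 were tested between the untreated lines, and 16 (64%) were lower and 2 (8%) higher in the knockout, beside 18.2% and 14% of all genes, with a median log2 fold change of -2.40 beside -0.02. SPRR2A, a small proline-rich protein, was at a mean of 184.5 CPM in HT1376 CT and 1.91 CPM in HT1376 FOXP3 KO (log2 fold change -6.63, adjusted p = 2.74e-06), and SPRR1A fell by 5.76 on the log2 scale (4.71e-06). TGM1, the transglutaminase that crosslinks the envelope, rose instead from 1.48 to 13.8 CPM (3.22, adjusted p = 0.000690), as did KRTDAP, a keratinocyte differentiation gene, at 1.88 (0.0330).

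Of 17 regulators of stratified epithelium tested, 9 (52.9%) were lower and 2 (11.8%) higher in the untreated knockout (median -0.49). Over all genes 18.2% were lower and 14% higher, so the share of regulators called higher was below that of all genes. PAX9 (log2 fold change -4.96, adjusted p = 2.91e-05) and GRHL3 (-3.74, 2.14e-05), factors of squamous differentiation, fell, and OVOL2 (1.65, 0.000271) and KLF5 (0.34, 0.0368) rose. Of 15 basal markers, 8 (53.3%) were lower and 2 (13.3%) higher (median -0.58), the latter again near the share of all genes. The laminin chain LAMA3 fell from a mean of 1513 to 50.3 CPM (-4.90, adjusted p = 4.33e-06) and P-cadherin, CDH3, from 134 to 6.51 CPM (-4.35, 3.75e-06), whereas the basal keratin KRT14 rose from 644 to 990 CPM (0.64, 0.0212).

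Of 10 squamous and wound keratins, 4 (40%) were lower and 1 (10%) higher. These shares and those of the next 3 lists stand beside 18.2% lower and 14% higher over all genes tested. KRT13, a keratin of wet squamous surfaces, fell from 87.9 to 14.9 CPM (log2 fold change -2.54, adjusted p = 4.69e-06), and KRT1, a keratin of the suprabasal epidermis, rose from 1.74 to 78.1 CPM (5.38, 1.68e-05). Among 18 antimicrobial proteins, proteases and protease inhibitors tested, 8 (44.4%) were lower and 4 (22.2%) higher (median -0.90), with the kallikreins KLK5 (-6.48) and KLK7 (-4.81), proteases of desquamation, lower and S100P (1.86) higher. Of 15 epidermal cytokines and EGFR ligands, 7 (46.7%) were lower and 2 (13.3%) higher (median -1.98), with TGFA at -5.55 and AREG at -4.84, both EGFR ligands, and IL1B at 2.83. Among 12 luminal urothelial genes 3 (25%) were lower and 1 (8.33%) higher (median -0.20), with UPK3B at -2.75 and PPARG at 1.45. The shares called higher among the keratins, cytokines and luminal genes lay under the 14% of all genes.

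**Figure D4:**
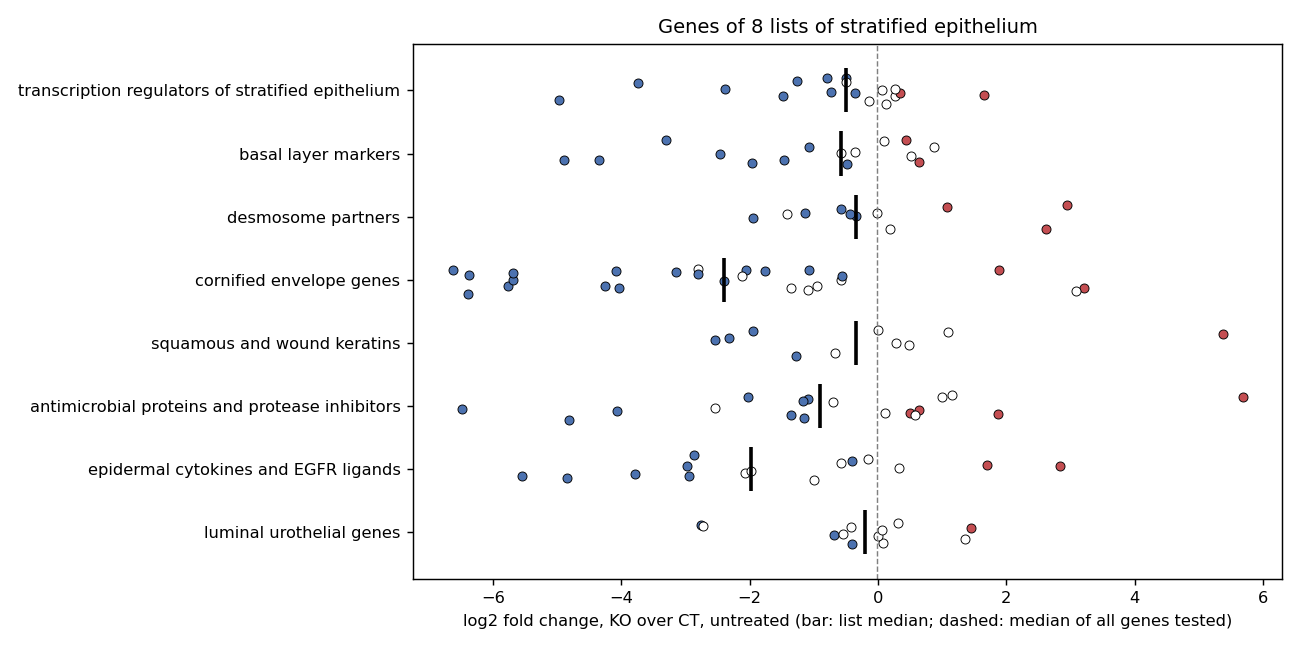
Log2 fold change of HT1376 FOXP3 KO over HT1376 CT, untreated, for the tested genes of 8 lists, 1 point a gene, spread vertically for legibility. Red points were called higher, blue points lower and open points were not called, the bars are list medians and the dashed line is the median of all genes tested (-0.02). The cornified envelope list has its median at -2.40 and the luminal list at -0.20, and fitted values of genes near 0 counts in 1 line depend on the prior count.

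Under IFNγ the envelope list held 13 lower and 1 higher of 21 tested (median -2.25), the regulators 8 and 3 of 17, the basal markers 7 and 2 of 15 and the cytokines 7 and 0 of 14. The desmosome partners held 2 lower and 3 higher of 11, the keratins 3 and 2 of 10, the antimicrobial list 7 and 2 of 17, and the luminal genes 0 and 2 of 11, beside 15.7% lower and 13.2% higher over all genes. DSC1 (log2 fold change 3.98) and KRT1 (6.0) were higher in the treated knockout, as they were without IFNγ, while PAX9 (-4.24) and GRHL3 (-3.87) were lower.

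IFNγ in HT1376 CT lowered 3 of 23 envelope genes tested, 3 of 11 desmosome partners and 3 of 10 keratins (13%, 27.3% and 30%), beside 1.82% of all genes. No gene of these 3 lists was called higher, and over all genes 3.53% were. DSG1 fell from a mean of 441 to 115 CPM (log2 fold change -1.91, adjusted p = 0.00267) and PKP1 from 54.4 to 24.99 CPM (-1.10, 0.000541). SPRR2E (-1.85, adjusted p = 0.0190) and corneodesmosin, CDSN (-1.36, 0.0196), an adhesive protein of cornified cells, fell too, as did the keratins KRT16 (-1.20) and KRT13 (-0.94). The antimicrobial list held 4 lower and 2 higher of 16, among them KLK7 (-0.88) and SERPINB1 (1.01), an inhibitor of neutrophil elastase. The cytokine list held 2 higher and 0 lower of 15, with IL22RA1 at 1.23. Regulators (1 lower, 1 higher of 17), basal markers (2 and 1 of 15) and luminal genes (1 and 0 of 12) held few calls. In HT1376 FOXP3 KO no gene of any of these lists was called after IFNγ by edgeR without the block.

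Of the 10 genes, 6 (IVL, SPRR1B, SPRR3, S100A7, S100A8 and S100A9) lie in the epidermal differentiation complex, a stretch of chromosome 1 with 63 protein-coding genes from S100A10 to S100A1. Between the untreated lines 41 were tested, and 21 were lower and 5 higher in the knockout, with a median log2 fold change of -1.55. The 5 higher genes, named here after their values were seen, were PGLYRP4, a peptidoglycan-binding protein (2.68, adjusted p = 0.00386), S100A9, S100A8, S100A7 and S100A14 (0.50, 0.0137). With IFNγ 37 were tested, and 15 were lower and the same 5 higher, with PGLYRP4 at 2.004 (adjusted p = 0.0497) and S100A14 at 1.20 (7.9e-05). The lower calls made 51.2% of the genes tested without IFNγ and 40.5% with it, beside 18.2% and 15.7% of all genes. The higher calls made 12.2% and 13.5%, beside the 14% and 13.2% of all genes. Unlike the lists above, these counts include the members, with SPRR1B and SPRR3 among the lower calls and S100A7, S100A8 and S100A9 among the higher.

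**Figure D5:**
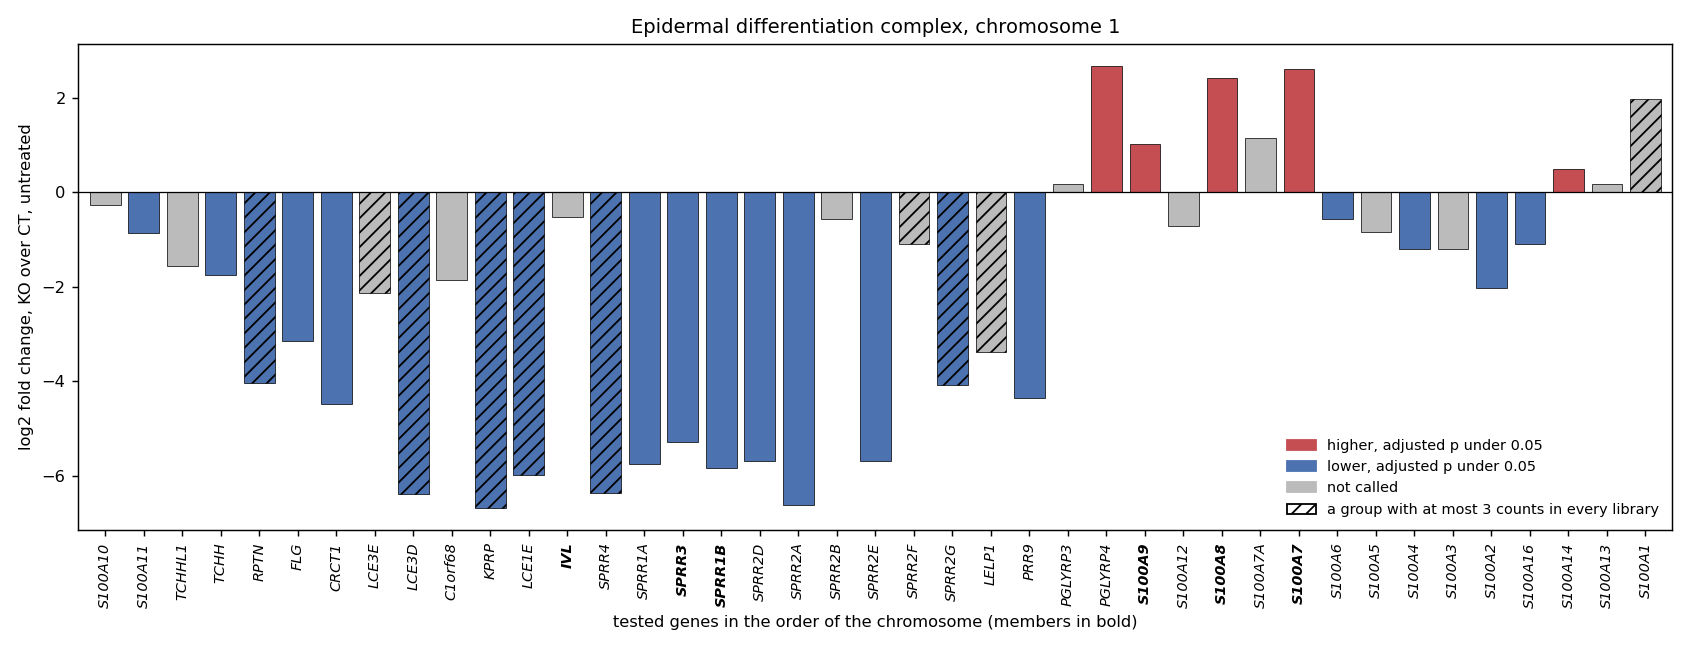
Log2 fold change of HT1376 FOXP3 KO over HT1376 CT, untreated, for the tested genes of the epidermal differentiation complex in chromosome order. Red bars were called higher, blue bars lower and grey bars were not called, and hatched bars are genes with at most 3 counts in every library of 1 line, whose fitted size is no bound. SPRR1B stands at -5.84 and SPRR3 at -5.28, and S100A9, S100A8 and S100A7 stand at 1.02, 2.43 and 2.62.

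Within HT1376 CT, IFNγ lowered 8 (20%) and raised 1 (2.5%) of 40 tested genes of the complex (median -0.57), beside 1.82% and 3.53% of all genes. The lower calls include the members IVL, SPRR1B and SPRR3. SPRR2E (-1.85) and S100A4 (-1.52), a calcium-binding protein of motile cells, were lower and C1orf68 was higher (3.40). In HT1376 FOXP3 KO 33 were tested and none was called by edgeR without the block (median -0.16).

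Over the 12 libraries, which fall into the 4 groups and share depth and clone, the log2 levels of SPRR1B and SPRR3 had a Pearson r of 0.995 and those of S100A7 and S100A9 one of 0.949. DSG3 went with SPRR1B (0.940) and against DSC3 (-0.71), and IVL had an r of 0.243 with SPRR1B. Among 17157 other genes over 1 CPM in at least 3 libraries, those most like SPRR1B were FSCN1 (0.997) and LAMA1 (0.995), and those most like SPRR3 were KLK7 (0.995) and TIMP2 (0.994). DSG3 was most like KRT34 (0.991) and ANGPT1 (0.982), and DSC3 most like HRK (0.990) and APOOL (0.985). TP63 had its closest match in SP1 (0.907) and ZNF702P (0.900), IVL in MAP7 (0.949) and AHCYL2 (0.916), and S100A7 in TRAIP (0.983) and HIST1H2BC (0.973). For S100A8 they were ATP6V0A2 (0.945) and WDR20 (0.941), and for S100A9 PCDHGB6 (0.979) and THRB (0.976).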

How the data were processed

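RNA-seq libraries were made from total RNA (Trizol, KAPA RNA HyperPrep). Per the study's methods and the submitters' processing notes, the authors aligned reads with STAR 2.7.11a to GRCh38 (hg38, Ensembl 103), used Kraken to take out Mycoplasma reads and deposited 1 column of raw whole-number counts per library. The strand setting and the handling of reads matching several genes are not given in the sources used here, so genes that share reads with a copy, an overlapping or an antisense gene are uncertain. The 12 columns all entered, and none was a copy of another. The 2701 unnamed genes held 0.1% to 0.121% of counts per library.

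Groups followed the labels. Genes whose counts summed to at least 10 in a comparison's libraries were tested with edgeR 4.0.16 (TMM, quasi-likelihood) in R 4.3.3, with limma 3.58.1, and Benjamini-Hochberg adjustment ran over all genes tested. The main edgeR fit, with the default or the bias-adjusted deviance, was run on data simulated without deviations shared within a replicate number. The block, DESeq2 and the other alternatives were not tested in this way. DESeq2 1.42.0 and other settings were alternatives. The 10 genes and all lists were chosen with earlier results of these data known. Beyond the 10, the text names the targeted gene, IFNγ response genes, close copies, at most 2 genes per direction from each list among those called without overlap and with over 3 counts in both groups, and the 2 genes most correlated with each member. Cell markers, the AP-1 motif and single values given for context fall outside this rule. A result for 1 gene under the rule is not reported here. Gene positions and exon lengths came from GENCODE 44 on the same build.

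Replicate numbers come from the titles. Over 15677 genes with a mean of at least 1 CPM, deviations from group means of same-numbered libraries correlated at 0.321 to 0.382 within HT1376 CT, 0.428 to 0.564 within HT1376 FOXP3 KO and 0.126 to 0.338 between the lines, against -0.441 to 0.161 for different numbers. The numbers were therefore taken to pair libraries within each line. The value of 0.161 for different numbers was found between the lines. Over 27806 genes with at least 10 counts the values were 0.139 to 0.152, 0.180 to 0.267 and 0.0407 to 0.136. Different numbers reached 0.0706 between the lines. The ranges between the lines thus overlapped with both sets of genes, and a pairing there is uncertain. Depth limits PI3, S100A7 and S100A8 most, and intervals from 3 counts as the limit of a count of 0 cover counting error only.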

Additional observations from a re-analysis of the deposited data

How the results depend on the processing

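The 3 lower calls of HT1376 FOXP3 KO against HT1376 CT (DSG3, SPRR1B and SPRR3) were kept in both conditions under every alternative run. Requiring an absolute log2 fold change over 1 left 4944 genes of 8135 untreated and 4625 of 7046 with IFNγ by construction. Leaving out libraries gave 4629 to 7810 genes and 6 to 8 members untreated, and 3553 to 7668 genes and 4 to 7 members with IFNγ (4 without both libraries numbered 11).

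For IFNγ in HT1376 CT, 1307 genes and 3 members became 679 and 1 with the fold threshold, 2248 and 5 with genes of at least 1 count, 4530 and 7 with the replicate block, and 4102 and 6 when the block's deviance was also bias-adjusted. With all 12 libraries in 1 fit, 1 member (IVL) was called. Leaving out libraries gave 370 to 1201 genes and 0 to 3 members, the lowest without both libraries numbered 13. For IFNγ in HT1376 FOXP3 KO, 237 genes and 0 members became 1334 and 5 with the block and 1027 and 4 with the block and the bias adjustment. Leaving out libraries gave 107 to 307 genes and 0 to 1 members, the 1 being S100A7 without both libraries numbered 12 (adjusted p 0.022). The interaction called 31 genes, 294 with genes of at least 1 count, 160 with DESeq2, 336 with the block, 230 with the block and bias adjustment and 8 to 49 with libraries left out, with no member called in any of these fits. The block changed no call of a member other than those given beside the results. The causes were not tested.

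Direction changed for uncalled members alone. In the interaction, DSG3 (-0.01) was 0.0025 with genes of at least 1 count, 0.14 with the bias adjustment and 0.23 with the block as well, and DESeq2 gave -0.073 for SPRR1B and 0.019 for S100A7. With libraries left out, log2 fold changes between the lines with IFNγ ran from -0.18 to 0.68 for IVL and -0.78 to 4.26 for PI3. After IFNγ in HT1376 CT they ran from -0.47 to 0.014 for DSG3 and -0.26 to 0.88 for S100A8. In HT1376 FOXP3 KO they ran from -0.13 to 0.12 for TP63, -1.86 to 0.16 for DSG3, -1.39 to 0.16 for SPRR1B, -1.12 to 0.29 for SPRR3, -0.94 to 0.19 for S100A8 and -5.76 to 1.11 for PI3. For the interaction they ran from -1.66 to 0.49 for DSG3, -0.75 to 0.97 for SPRR1B, -0.17 to 1.27 for SPRR3, -0.62 to 0.80 for S100A7, -0.11 to 0.57 for S100A9 and -6.91 to 2.33 for PI3. Outside the fits that leave out libraries, 400 other values and counts kept their direction and call, 21 gained a call, 6 lost one and 5 reversed direction. With libraries left out, 436 kept both, 2 gained a call, 22 lost one and 42 reversed direction.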
